A study of Mus musculus with 4 samples.

Results

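The SOX factors of group B are 5 transcription factors of the SRY-related HMG box family, and they were picked from the deposited table by gene symbol. Sox1, Sox2 and Sox3 form subgroup B1, and Sox14 and Sox21 form subgroup B2. All 5 were among the 11747 genes or gene groups of the table. The values come from RNA sequencing of mouse embryonic stem cell cultures that were differentiated toward spinal motor neurons. Cells of a line made from A172LoxP were used, with a transcription factor transgene whose expression is induced by the antibiotic doxycycline. As embryoid bodies, free-floating cell aggregates, they received 0.5 µM all-trans retinoic acid and 1 µM purmorphamine, a drug that activates Sonic hedgehog signalling, for 2 days. For the next 2 to 3 days 1 group received 2 µg/mL doxycycline and the other received vehicle. Each group had 2 libraries, numbered 1 and 7 without doxycycline and 2 and 8 with it. Both groups carry the transgene, and no line without it is part of the series, so the transgene and doxycycline itself cannot be told apart.

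SoxB1 factors bind DNA through the HMG box and act as activators that keep neural progenitors in an undifferentiated, dividing state. Their levels normally fall as a cell becomes a neuron. SoxB2 factors carry a closely related HMG box but act mainly as repressors, and Sox21 is known to counteract SoxB1 activity and to favour neuronal differentiation. In the ventral spinal cord Sox14 marks V2a interneurons, which arise next to motor neurons.

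The HMG box shows how alike the 5 genes are at the level that sequencing reads see. The stretch of 79 codons with the highest summed identity between Sox2 and the other members was located in the GENCODE M21 coding sequences, and it falls on the HMG box. It is printed for all members, 5′ to 3′, and capitals mark bases that differ from Sox2 at the same place.
Sox1: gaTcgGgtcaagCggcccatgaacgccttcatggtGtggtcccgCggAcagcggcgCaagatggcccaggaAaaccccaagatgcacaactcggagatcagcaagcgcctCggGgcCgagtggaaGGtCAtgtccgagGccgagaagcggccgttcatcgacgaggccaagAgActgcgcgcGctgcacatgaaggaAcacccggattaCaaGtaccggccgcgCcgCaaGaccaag
Sox2: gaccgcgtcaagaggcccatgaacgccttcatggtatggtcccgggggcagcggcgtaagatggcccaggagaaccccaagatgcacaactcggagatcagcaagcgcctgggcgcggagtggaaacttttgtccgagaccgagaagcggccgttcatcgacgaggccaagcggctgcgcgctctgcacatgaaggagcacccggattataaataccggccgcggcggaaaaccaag
Sox3: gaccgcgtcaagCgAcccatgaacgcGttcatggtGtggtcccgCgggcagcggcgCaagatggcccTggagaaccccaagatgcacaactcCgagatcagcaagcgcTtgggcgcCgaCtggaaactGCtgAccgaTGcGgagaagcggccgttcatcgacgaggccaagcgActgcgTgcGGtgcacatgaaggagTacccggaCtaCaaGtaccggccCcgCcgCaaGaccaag
Sox14: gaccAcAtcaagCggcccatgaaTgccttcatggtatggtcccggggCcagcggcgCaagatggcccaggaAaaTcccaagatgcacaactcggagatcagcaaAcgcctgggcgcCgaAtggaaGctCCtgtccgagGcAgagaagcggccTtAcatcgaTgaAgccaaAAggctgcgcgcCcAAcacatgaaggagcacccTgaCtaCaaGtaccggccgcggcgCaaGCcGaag
Sox21: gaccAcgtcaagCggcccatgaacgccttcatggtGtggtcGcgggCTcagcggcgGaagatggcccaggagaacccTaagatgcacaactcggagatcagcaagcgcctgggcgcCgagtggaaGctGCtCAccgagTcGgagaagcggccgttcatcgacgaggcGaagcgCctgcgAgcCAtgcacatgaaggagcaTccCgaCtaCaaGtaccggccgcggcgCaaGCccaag
The stretches lie at chr8:12396505-12396741, plus strand (Sox1), chr3:34650536-34650772, plus strand (Sox2), chrX:60892771-60893007, minus strand (Sox3), chr9:99875433-99875669, minus strand (Sox14) and chr14:118235384-118235620, minus strand (Sox21), all on GRCm38 and all within the single exon that GENCODE gives for each gene. Of the 237 bases, 25 differed from Sox2 in Sox1, 29 in Sox3, 33 in Sox14 and 29 in Sox21. Identity between any pair of members ranged from 84.0% (Sox3 and Sox14) to 89.5% (Sox1 and Sox2), and Sox14 and Sox21 were 86.5% identical. The longest run of bases shared exactly by a pair of whole transcripts was 45 bases, between Sox1 and Sox3, and 19 bases between Sox3 and Sox14. The sources used here do not give the read length, and whether reads from such runs were shared between members was not tested.

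The 4 libraries held an estimated 22434755 to 30235763 reads in the listed genes. The authors scaled the values, which are called normalized read counts below, to sums of 26449555 to 27047458. The labels do not state whether a group's libraries came from separate cultures, and the p-values rest on a spread that may be technical. Motor neuron markers were present in all libraries, with sums over 7 genes of 13088 and 12693 without and 4185 and 3683 with doxycycline, and all 7 fell (6 of them without library 8, where Chat had a limma adjusted p of 0.0587). Endoderm markers differed more between libraries of a group than between the groups, with sums over 8 listed genes of 15626 and 23609 without (libraries 1 and 7) and 13728 and 22552 with doxycycline (libraries 2 and 8). Over all genes, 278 of 11747 (2.37%) passed the limma test at an adjusted p under 0.05, with 0.579% higher and 1.79% lower with doxycycline.

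All 5 SoxB genes were higher in both libraries with doxycycline than in both without, and both SoxB2 genes passed the test. Sox14 went from at most 1 estimated read per library to 46 and 119 reads, and Sox21 went from 517 ± 64.8 to 1016 ± 161 normalized read counts (mean ± SD, n = 2). The SoxB1 genes had smaller differences, of 1.34-fold to 1.58-fold, and none of the 3 passed after adjustment. The median log2 change over the 5 genes was 0.66, against 0.00 over all genes. Of the 5 genes 2 were called higher and none lower, beside 0.579% of all genes called higher. Sox14, among the 2, was near 0 without doxycycline and could be listed only if it was high with it. Its part in these counts is therefore no support for a change of the group. Groups that do not overlap, as in these 5 genes, were found for 26.7% of all genes in the higher direction. An unadjusted p under 0.05 with a rise was found for all 5 members and for 9.58% of all genes. The members were chosen with results of these data known, so these counts are a description. In bulk RNA, a change in the number of cells that express a gene and a change in RNA per cell cannot be told apart.

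**Figure D1:**
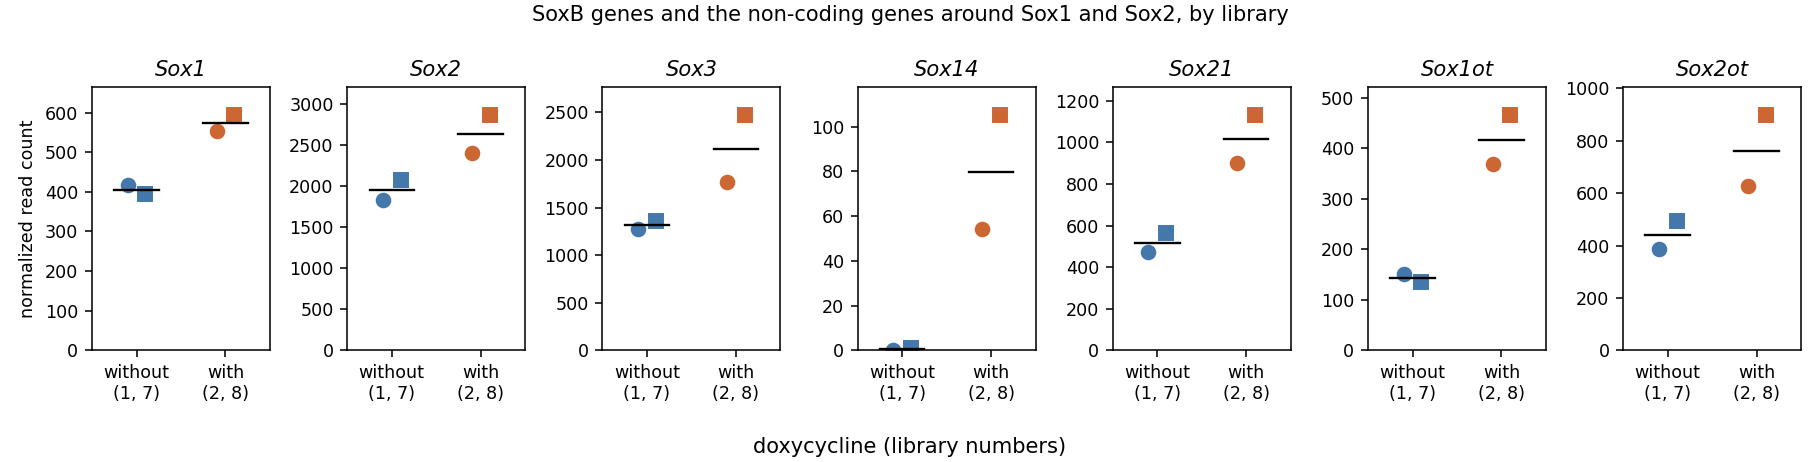
Normalized read counts (vertical axis, from 0, scaled for each gene) of the 5 SoxB genes and of Sox1ot and Sox2ot without and with doxycycline. Circles are libraries 1 and 2, squares are libraries 7 and 8, and bars are group means of 2 libraries. In each panel both libraries with doxycycline lie above both without, and library 8 is the highest.

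Among the SoxB1 genes is Sox1, whose product marks the early neural lineage. Sox1 was at 417 and 394 normalized read counts without doxycycline in libraries 1 and 7. With doxycycline it was at 554 and 593 in libraries 2 and 8. The groups lay apart, and the libraries within each group were close. The log2 change was 0.50 ± 0.10 (SE), with a 95% interval of 0.24 to 0.75, and did not pass (limma, adjusted p = 0.0740).

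Sox2, which marks both pluripotent cells and neural progenitors, was at 1833 and 2074 without and at 2405 and 2861 with doxycycline. Libraries 7 and 8 were each higher than libraries 1 and 2 of their groups. The log2 change was 0.43 ± 0.11, with an interval of 0.15 to 0.70 (limma, adjusted p = 0.114).

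Sox3, an X-linked gene from which the sex-determining gene Sry is thought to derive, was at 1277 and 1360.4 without and at 1766 and 2466 with doxycycline. Here the libraries with doxycycline stood far apart from each other. The log2 change was 0.66 ± 0.16, with an interval of 0.27 to 1.05 (limma, adjusted p = 0.0983). It was 0.47 between libraries 2 and 1 and 0.86 between libraries 8 and 7. Without library 2 the change was 0.90 and passed (limma, adjusted p = 0.0350), and without library 8 it was 0.42 (limma, adjusted p = 0.221).

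SoxB1 sums followed the single genes. The summed normalized read count of Sox1, Sox2 and Sox3 was 3527 and 3829 without doxycycline and 4725 and 5919.6 with it. The upper limits of the intervals, at 1.68-fold for Sox1, 1.63-fold for Sox2 and 2.08-fold for Sox3, bound the size of change that these libraries allow.

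Among the SoxB2 genes, Sox21 was at 471 and 563 normalized read counts without and at 902 and 1129.9 with doxycycline. The lowest library with doxycycline lay well above the highest without. Sox21 rose by 0.97 ± 0.15 on the log2 scale, with an interval of 0.61 to 1.33 (limma, adjusted p = 0.0403). The difference was 0.94 between libraries 2 and 1 and 1.00 between libraries 8 and 7. The call was lost without library 1 (limma, adjusted p = 0.0543), 2 (0.0531) or 8 (0.154) and held without library 7 (0.0101), while the change stayed between 0.81 and 1.13.

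Sox14 was listed at 0 and 1.07 normalized read counts without and at 54.2 and 105 with doxycycline. This corresponds to 0 and 1 estimated reads against 46 and 119, so nearly all of its 166 reads came from the group with doxycycline. Per library size the ratio was 173, with an exact Clopper-Pearson 95% interval of 30.6 to 6858 that covers counting error only. Sox14 passed the limma test (adjusted p = 0.0458). The size of its log2 change, 5.73 at a pseudocount of 1, depends on the settings, and it is 3.87 at a pseudocount of 5 and 3.59 after quantile normalization. Its call was lost without library 2 (limma, adjusted p = 0.160) or 8 (0.320) and held without library 1 (0.0484) or 7 (0.0232).

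Sox14 had the lowest mean of all rows, 40.1. No row of the table has fewer than 101 estimated reads in its highest library, and Sox14 passed that number in library 8 alone. A gene near 0 without doxycycline could thus be listed only if it was high with it, so its difference is no support for a change of the group as a whole. For a single gene, an exact two-sided permutation test of 2 against 2 libraries gave p = 0.33 for each of the 5 members, which is the smallest value it can give.

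The promoters of the 2 genes that passed are shown because both rose, and because bHLH, homeodomain and SOX factors are the main classes of neural patterning factors. The 250 bases before the start of transcription are from RefSeq on GRCm38.p6, at chr9:99876171-99876420, minus strand for Sox14 and chr14:118237031-118237280, minus strand for Sox21, printed 5′ to 3′ on the gene's strand. Capitals mark the E-box CANNTG, which the Sox21 stretch does not hold.
Sox14: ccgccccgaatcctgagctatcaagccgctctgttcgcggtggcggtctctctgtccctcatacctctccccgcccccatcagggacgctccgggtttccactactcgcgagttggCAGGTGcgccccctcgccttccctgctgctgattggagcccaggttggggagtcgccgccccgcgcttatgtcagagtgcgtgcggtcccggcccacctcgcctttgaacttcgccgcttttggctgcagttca
Sox21: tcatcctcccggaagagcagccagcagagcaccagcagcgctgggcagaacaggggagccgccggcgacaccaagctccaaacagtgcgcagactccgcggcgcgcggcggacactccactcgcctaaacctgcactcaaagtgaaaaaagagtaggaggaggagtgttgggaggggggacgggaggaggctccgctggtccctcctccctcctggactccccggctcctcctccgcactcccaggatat
In a window that also takes in 50 bases after the start, both strands were searched for ATTGT (the SOX core), TAATTA (a homeodomain core) and CANNTG (the E-box bound by bHLH factors). These motifs do not overlap each other in the windows. A promoter was in the RefSeq table for 4 of the 5 members, and Sox3 had none there. Neither ATTGT nor TAATTA was in any of the 4 windows, while 31% and 5.3% of all 32817 promoters hold them. CANNTG was in the windows of Sox14, as CAGGTG at positions -134 and +22 from the start, and of Sox2, and in 72.3% of all promoters. These letters describe the windows and say nothing of which factors act on the genes.

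Levels can be compared between genes only per length, and each member has a single exon, so the length of its RefSeq transcript was used. Without doxycycline, Sox2 was the most abundant member at 792 ± 69.2 normalized read counts per kb (mean ± SD, n = 2), followed by Sox3 at 639 ± 28.5, Sox21 at 136 ± 17.1, Sox1 at 100.5 ± 4.08 and Sox14 at 0.259 ± 0.366. No pair of neighbours in that order overlapped between libraries. With doxycycline, Sox2 was at 1067 ± 131 and Sox3 at 1025 ± 240 per kb, and these did not differ beyond their spread. Sox21 followed at 267 ± 42.5, Sox1 at 142 ± 6.77 and Sox14 at 38.5 ± 17.4. The members kept this order per kb of coding sequence. On that scale Sox2 and Sox3 lay further apart, at means of 2035 and 975 without and 2743 and 1564 with doxycycline. How close these genes are thus depends on the length used.

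**Figure D2:**
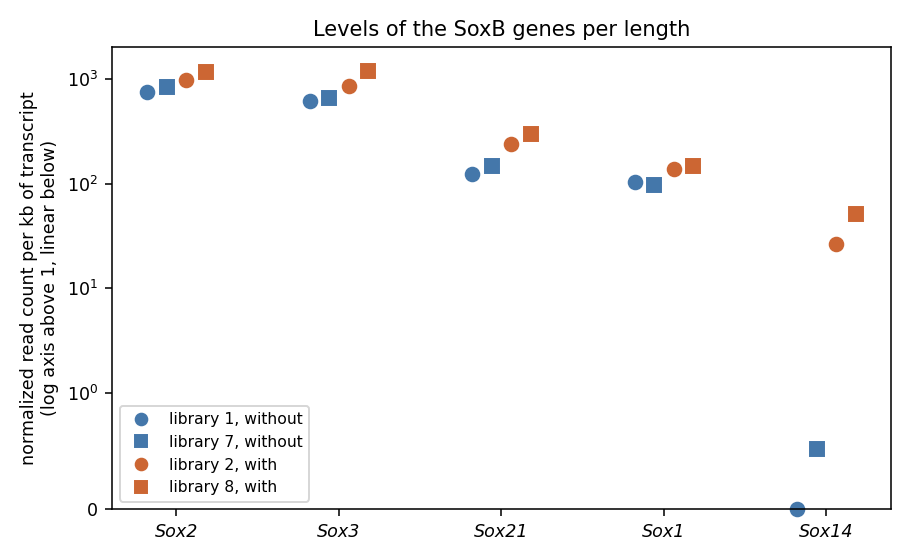
Normalized read count per kb of transcript for each SoxB gene in the 4 libraries, on an axis that is logarithmic above 1 and linear below. Sox2 and Sox3 lead in each library, and Sox14 is at or near 0 without doxycycline and at 26.3 and 50.8 with it.

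The balance between the subgroups can be read within each library. SoxB2 genes made up 7.80% and 8.51% of the SoxB total per kb without doxycycline and 11.8% and 12.2% with it, so the libraries with doxycycline had the higher shares. The Sox21 level per kb was 16.7% and 17.6% of that of Sox2 without and 24.4% and 25.7% with doxycycline. The SoxB2 shares, here and per kb of coding sequence below, include Sox14, which could be listed only if it was high with doxycycline. Its part in them is therefore no support for a shift between the subgroups. Sox14 made up 9.96% and 14.6% of the SoxB2 level per kb with doxycycline. The values of Sox21 against Sox2 do not contain Sox14. Within SoxB1, Sox3 held 42.2% and 41.2% of the SoxB1 level without and 43.5% and 47.8% with doxycycline, and Sox2 held 50.7% and 52.6% without and 49.6% and 46.4% with it. The percentages depend on the length used. Per kb of coding sequence, a scale added after the data were seen, SoxB2 genes made up 15.0% and 16.2% without and 21.3% and 22.1% with doxycycline, and Sox21 was at 29.7% and 31.3% of Sox2 without and 43.3% and 45.6% with it. On both scales the libraries with doxycycline had the higher values. These shares were not tested, since they are built from the chosen members.

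Sox1 and Sox2 each overlap a non-coding gene on the same strand, Sox1ot and Sox2ot, whose exons in GENCODE share no base with theirs. Both were listed, Sox1ot under an older symbol and found by its RefSeq accession, and Sox2ot in a row that it shares with the microRNA gene Mir1897, the neighbour before Sox2 in RefSeq. Sox1ot was at 152 and 135 normalized read counts without and at 369 and 465 with doxycycline. It rose by 1.52 ± 0.17 (limma, adjusted p = 0.0220), a larger value than the 0.50 of Sox1. The call was lost without library 8 (limma, adjusted p = 0.0993). Sox1 had 2.75 and 2.91 times the count of Sox1ot without doxycycline and 1.5 and 1.28 times with it, so the ratio was lower in both libraries with doxycycline.

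Sox2ot was at 385 and 492 without and at 626 and 896 with doxycycline, with no overlap between the groups. Its value of 0.78 ± 0.20 did not pass (limma, adjusted p = 0.115), nor did that of Sox2. A row that joins Sox2ot with a microRNA cannot be assigned to either alone. Sox21 shares 713 exonic bases with the non-coding gene Gm4675 on the opposite strand in GENCODE. Gm4675 was not listed, and the sources used here do not say if reads were counted by strand, so reads of this part of Sox21 cannot be told apart from it. Apart from Sox1ot and the row of Mir1897, no nearest neighbour of the 5 genes in the RefSeq gene order was listed.

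Of 14 SOX factors of other groups, 9 were listed. None passed in limma, 1 had an unadjusted p under 0.05, 4 had values above 0 and 5 below, and the median was -0.00. The SoxC genes Sox4 and Sox11, which act in early postmitotic neurons, had values of -0.19 ± 0.12 and -0.33 ± 0.06 (limma, adjusted p = 0.419 and 0.0636). Sox11 was at 12947 and 12414 without and at 10437 and 9809.5 with doxycycline, with no overlap between the groups. Sox12, the remaining SoxC gene, was at 0.14 ± 0.07. Sox9, a SoxE factor of glial progenitors, was at 932 and 997 without and at 1012 and 979.98 with doxycycline, and the groups overlapped. The endoderm factors Sox7 and Sox17 differed between libraries of a group, with Sox17 at 576 and 914 without and 498 and 1054 with doxycycline. Sox5, Sox6 and Sox13 of the SoxD group had values of -0.16, 0.35 and 0.19, none past the test.

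**Figure D3:**
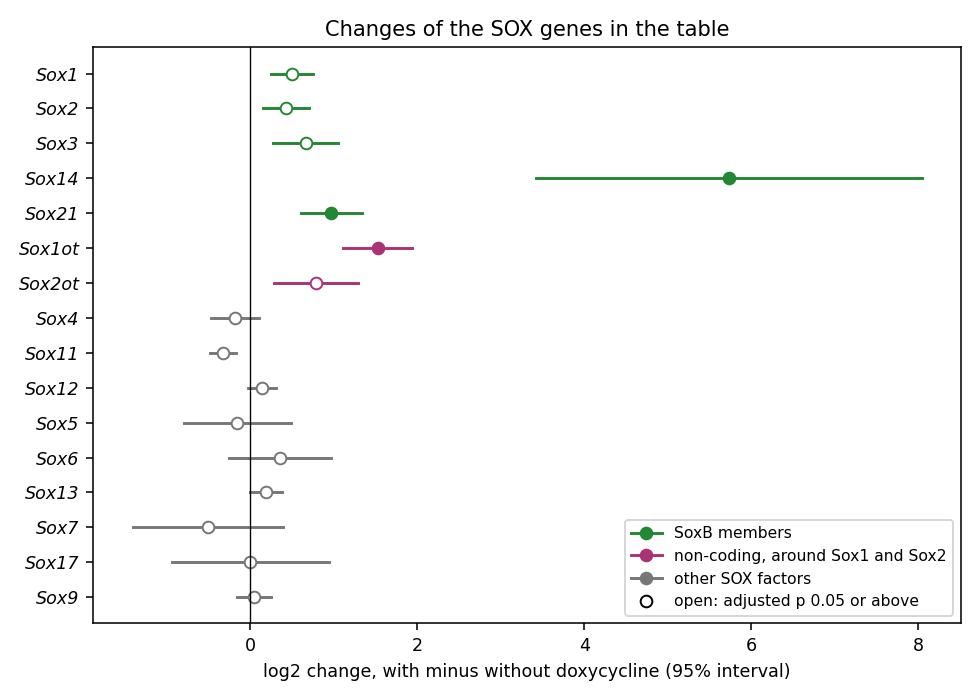
Log2 change with minus without doxycycline for each SOX gene in the table, with 95% intervals from limma. Filled points passed at an adjusted p under 0.05: Sox14, Sox21 and Sox1ot. The 9 SOX factors of other groups lie between -0.51 and 0.35.

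SOX factors bind many sites together with POU factors. All 7 genes of the POU list were listed, and 1 of them rose. Pou3f2, also called Brn2, which pairs with SoxB1 factors in neural progenitors, was at 1427 and 1402 without and at 2537 and 2545 with doxycycline. It rose by 0.84 ± 0.07 (limma, adjusted p = 0.00962), and the libraries of each group were nearly equal. The call was lost without library 8 alone (limma, adjusted p = 0.0513). Pou3f3 had a value of 0.21 ± 0.09 (limma, adjusted p = 0.239). Pou3f1 (-0.38 ± 0.35) and Pou5f1 (-0.41 ± 0.52), the partner of Sox2 in pluripotent cells, overlapped between the groups, and Pou2f2 was at -0.34 ± 0.10. The list had a median of -0.03.

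Genes of neural progenitors, in which SoxB1 factors act, had mixed values. All 18 were listed, 12 had values above 0 (50.6% of all genes did), 6 had values below, and the median was 0.20. An unadjusted p under 0.05 in either direction was found for 9 of the 18. Over all genes this share was computed for a rise alone (9.58%), so it cannot be set beside that count. The groups did not overlap for 10 in the higher and 4 in the lower direction (26.7% and 26.5% of all genes). Slc1a3, a glutamate transporter of radial glia, rose by 0.52 ± 0.08, and Irx3, a homeodomain factor of neural progenitors, fell by 0.55 on the log2 scale. Prom1 (0.39 ± 0.08) and the homeodomain gene Nkx6-2 (1.16 ± 0.28) did not pass (limma, adjusted p = 0.0765 and 0.101). Nes, the progenitor intermediate filament gene, was at 4936 and 5112 without and at 4649 and 4539 with doxycycline, so the groups did not overlap but the values were lower with it. Of 14 cell cycle genes none passed in limma (6 at an unadjusted p under 0.05 in either direction). In this list 12 had values above 0 (50.6% of all genes did), and the median was 0.21. The groups did not overlap for 10 of the 14 in the higher and 2 in the lower direction (26.7% and 26.5% of all genes). Of the 14, 12 were also higher in library 7 than 1 and in 8 than 2, and 0 were lower in both. The calls of Slc1a3 and Irx3 were each lost without library 1, 2 or 8, and that of Slc1a3 also without library 7.

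Genes of postmitotic neurons, where SoxB1 levels are normally low, lay lower with doxycycline. Of 16 genes 15 were listed, all 15 had values below 0 with no overlap between the groups (26.5% of all genes did not overlap in that direction), and 12 fell. Their median was -0.86. Summed normalized read counts of this list were 179676 and 159920.1 without and 88489 and 71519 with doxycycline. The part of a different mix of progenitors and neurons in the SoxB values was not tested. Without library 8, 6 genes of this list were called, and 4 in limma without a trend.

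Proneural and early neuronal factors, whose action SoxB1 proteins hold back, had no member past the limma test and 0 at an unadjusted p under 0.05. Of 13 genes 8 were listed, with a median of -0.12. Neurog2 was at 2133 and 2160.3 without and at 2360.3 and 1717 with doxycycline, with overlap between the groups. The groups did not overlap for 2 of the 8, both in the lower direction, beside 26.5% of all genes in that direction. These were Neurod4 (-0.53 ± 0.25) and Nhlh1 (-0.29 ± 0.13).

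In the V2 interneuron list 9 of 13 genes were listed, and Sox14 and Sox21 were the 2 that rose. Sox14 could be listed only if it was high with doxycycline. Lhx4 fell by 0.92 on the log2 scale, a call lost without library 1 or 8 (limma, adjusted p = 0.0872 and 0.146). The Notch ligand gene Dll4 (0.63 ± 0.21) and the V2 and motor neuron factor gene Lhx3 (0.55 ± 0.17) had no overlap between the groups and did not pass (limma, adjusted p = 0.172 and 0.155). Here the groups did not overlap for 4 genes in the higher and 3 in the lower direction (26.7% and 26.5% of all genes). Gata2 and Gata3, which mark the V2b neurons that arise beside V2a, had values of -0.22 ± 0.34 and -0.50 ± 0.25. Gata3 did not overlap between the groups and was lower with doxycycline, as was the list member Lmo4 (-0.16 ± 0.08). Vsx1, Shox2, Foxn4 and Tal1 were not listed. Sox14 also marks some GABAergic neurons outside the spinal cord, and none of the 5 GABAergic genes (Gad1, Gad2, Slc32a1, Slc6a5 and Tal2) was listed. A gene that is not listed may have had reads below the number that the table needs.

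Markers of other cells that express SoxB genes were compared in the same way. Of 14 pluripotency genes 10 were listed, none passed in limma (0 at an unadjusted p under 0.05), and the median was -0.20. Pou5f1 was at 307 and 141 without and at 243 and 101 with doxycycline, and Nanog at 129.6 and 64.4 without and at 156 and 82.9 with it. Of the 10 genes, 6 were lower in library 7 than 1 and in 8 than 2, these among them, and 4 were higher in both, as Sox2 was. Of 10 endoderm markers Apoe alone rose, by 0.54 ± 0.08 (a call lost without library 1, 2 or 8, with limma adjusted p = 0.115, 0.0943 and 0.194), and the median of the 8 listed was -0.13. Of 8 neural crest markers 3 were listed and none passed in limma (1 at an unadjusted p under 0.05), and the defining markers Sox10, Foxd3 and Tfap2a were not among them.

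**Figure D4:**
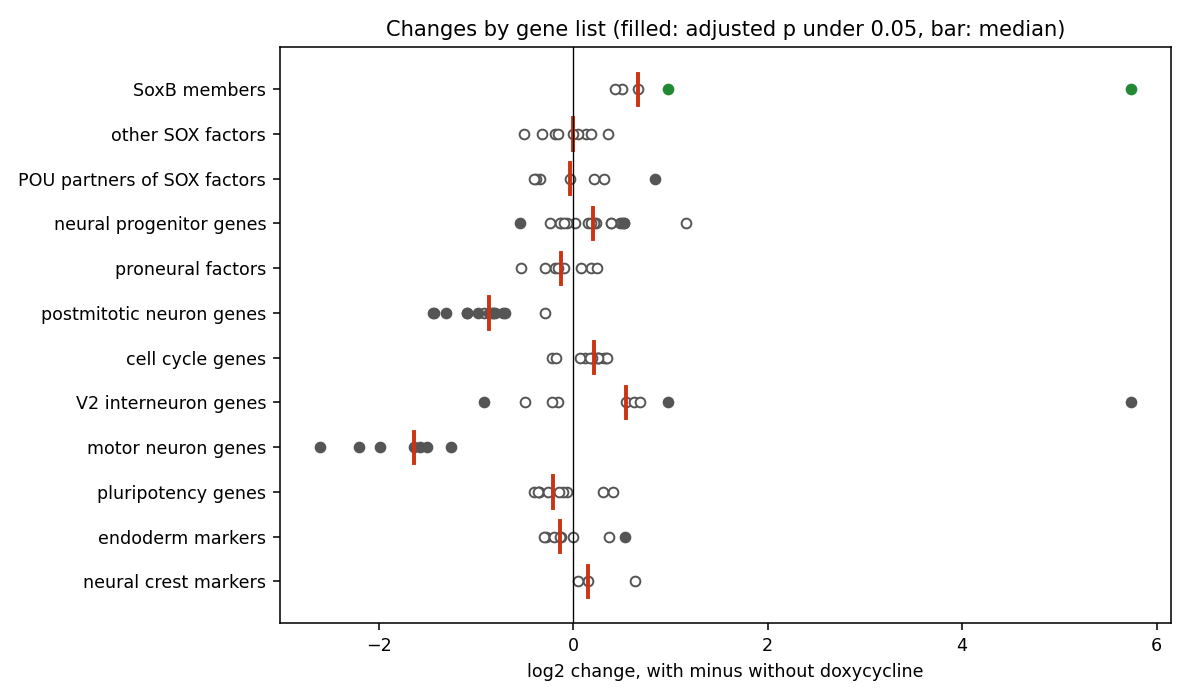
Log2 change with minus without doxycycline for the SoxB genes and for the listed members of each gene list, 1 point per gene, filled where the adjusted p was under 0.05, with a bar at the median. Medians are 0.66 for the SoxB genes, -0.86 for postmitotic neuron genes and -1.63 for motor neuron genes.

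Libraries 7 and 8 were higher than libraries 1 and 2 in most SoxB genes. Between libraries 7 and 1, both without doxycycline, the log2 difference was 0.18 for Sox2, 0.09 for Sox3, 0.26 for Sox21 and -0.08 for Sox1. Between libraries 8 and 2, both with doxycycline, it was 0.25, 0.48 and 0.32 for Sox2, Sox3 and Sox21 and 0.10 for Sox1. The summed endoderm markers were also higher in libraries 7 and 8, and their part in these differences was not tested. Between libraries 2 and 1, and between libraries 8 and 7, all 5 SoxB genes were higher with doxycycline, with differences of 0.41 and 0.59 for Sox1 and 0.39 and 0.46 for Sox2. The direction without any 1 library is fixed by groups that do not overlap and is no sign of stability.

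The genes with the most similar profile over the 4 libraries were found by the root mean square distance of centred log2 values among 10687 genes. For Sox1 they were Grip2, Rgs8 and Tm7sf3, at distances of 0.025, 0.027 and 0.030, and of these Tm7sf3 passed the test, a call lost without any 1 of the 4 libraries (limma, adjusted p = 0.0774 to 0.203). For Sox2 they were Ccdc8, Gpx8 and Pif1, at 0.018, 0.020 and 0.021. For Sox3 they were Emid1, Nrbp2 and Lrrc9, at 0.024, 0.038 and 0.048. Sox21 was most like Loxl3, Ephx2 and Adssl1, at 0.042, 0.063 and 0.066. Sox14 had no close match, and the nearest, Foxd4, Hprt and Nkx2-2, lay at 1.18, 1.25 and 1.48. Among the members, Sox1 and Sox2 were nearest to each other at 0.11, and Sox21 was nearer to Sox3 (0.17) than to Sox2 (0.27). These distances over 4 libraries are a description only.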

How the data were processed

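Per the labels' protocols, total RNA of 4 samples, 2 per group, was made into TruSeq libraries. CASAVA, TopHat2, HTSeq, DESeq and the build mm9 are listed in the submitters' processing notes, with no version, role or order. Values in the deposited table are a signal, read counts scaled library by library: each column has a step of which 100% of its values are whole multiples within 0.1 (0.894, 1.07, 1.18 and 0.882 in libraries 1, 7, 2 and 8). Estimated reads are those multiples, and no count model was fitted. Column names gave the group by its initials, and their numbers differ from the labels' replicate numbers.

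Values were analysed as log2(value + 1), with a row mean of at least 10 as the filter, which removed no row and kept all 5 members. Groups were compared with limma 3.58.1 in R 4.3.3 (moderated, intensity trend, two-sided, Benjamini-Hochberg over 11747 rows, threshold 0.05), with 2 residual and 3.83 prior degrees of freedom. The fit was run on simulated data with independent libraries and the same dispersion for every gene. Those data held no differences shared between libraries, so the run is no support for the calls made here. Alternatives were other pseudocounts, filters, scalings and variance models, each library left out, and pairing by column number. Genes named are the 5 members, other SOX genes, neighbours, up to 4 genes with the smallest p per list and the 3 most similar profiles; others named (among them Neurog2, Dll4, Gata2, Gata3, Nes, Pou5f1 and Nanog) were chosen as list members after their values were seen. Members and lists were chosen with earlier results of these data known. The planned protein comparison was replaced by one of coding sequences after the data were seen, since no protein table was used here. Lengths and sequences are from RefSeq and GENCODE M21 on GRCm38, not the mm9 of the counting. The induced gene is not reported here. Python 3.11.15, pandas 2.3.3, numpy 2.4.6, scipy 1.17.1 and matplotlib 3.10.9 were used.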

Additional observations from a re-analysis of the deposited data

How the results depend on the processing

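All 5 SoxB changes stayed above 0 in every alternative run. Since the groups do not overlap, this sign is fixed for other pseudocounts, filters, variance models, left-out libraries and the block. It is no sign of stability there. The calls of Sox14 and Sox21 depended on settings. At a pseudocount of 0.5 the Sox14 change was 6.42 (limma, adjusted p = 0.0566) and in limma without a trend that of Sox21 was 0.97 (adjusted p = 0.0856). At a pseudocount of 0.5, at a mean of at least 50 (which leaves out Sox14) and without a trend, 1 of the 5 genes was called (in that order Sox21, Sox21 and Sox14), and over all genes 105 were called without a trend and 419 with robust empirical Bayes. With each library left out, the log2 change ranged from 0.45 to 0.55 for Sox1, 0.30 to 0.55 for Sox2, 0.42 to 0.90 for Sox3, 5.21 to 6.26 for Sox14 and 0.81 to 1.13 for Sox21, the number of SoxB genes called from 0 to 2 and that over all genes from 44 to 494. Which SoxB genes were called changed with the library left out, and the calls of Sox14 and Sox21 did not hold without library 8. A fit without 1 library leaves 1 group with a lone library, which is assumed to vary like the other group. TMM factors, quantile normalization, no filter, a pseudocount of 5 and robust empirical Bayes left the call of each of the 5 genes as it was.

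A replicate block paired libraries by the order of their column numbers (1 with 2, 7 with 8). It had 1 residual degree of freedom and infinite prior degrees of freedom, so each gene's own spread had no weight in its test. This block called 3508 of 11747 genes and 5 of the 5 SoxB genes, among them Sox1 (0.50), Sox2 (0.43) and Sox3 (0.66). The differences between libraries of a group correlated at r = 0.63 across genes (not independent replicates) between the groups, but with 2 pairs, and numbers that the labels do not explain, this does not establish a pairing. The order of members per length was the same for all 5 with coding length. Of 315 comparisons of the counts of called list members and of motif matches with their main value, 44 differed by over 1.5 times, 15 of them under the block. Sox14 has too few reads for a fold change that is precise within counting error.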
